A study of Bos taurus with 3 samples.

Results

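SERPINA5, SERPINA11, ITIH4, FGL1 and DLK1 encode proteins that cells secrete or shed from their surface. They are 5 of the 9154 genes with at least 1 tag in the bovine mammary gland before calving, at day −35 (−35 d) and day −7 (−7 d), or after it, at day 3 (+3 d). They were chosen by their tag counts in these same libraries, since each was lower at −7 d than at −35 d, and lower again at +3 d than at −7 d. Every fall given below is therefore a description and carries no test. The 18 cows were Holsteins of the same age and of the second parity, with no treatment named in the labels. Each time point had its own group of 6 cows, and their biopsied tissue was pooled before RNA was isolated. Time point and group of cows therefore cannot be told apart. Digital gene expression (DGE), which counts short sequence tags cut from transcripts, gave 1 library per pool. No replicate library exists, so the spread among cows is unknown. The change from −35 d to −7 d is called stage I, and that from −7 d to +3 d stage II.

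Serpins are protease inhibitors that trap their target protease by a large change of shape. SERPINA5, the protein C inhibitor, acts on activated protein C, thrombin, urokinase and kallikreins, while SERPINA11 is a little studied member of the same clade. ITIH4 belongs to the heavy chains of the inter-alpha-trypsin inhibitors, plasma proteins whose relatives bind hyaluronan, and is itself an acute phase protein that kallikrein cleaves. FGL1 carries a fibrinogen domain, is made mainly by hepatocytes and binds the T cell receptor LAG3. DLK1 is an imprinted membrane protein with epidermal growth factor repeats; ADAM17 sheds its outer part, which holds back the maturation of preadipocytes. SERPINA5, ITIH4 and FGL1 are best known as products of the liver, and DLK1 from embryonic tissue and from immature cells. In the cow, the weeks from −35 d to +3 d take the gland from rest through rebuilding to milk secretion.

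The libraries held from 5593237 to 5914422 clean tags, and a count of 3 tags corresponded to 0.507 to 0.536 TPM (transcripts per 1000000 clean tags, with no correction for gene length). The intervals given below are at the 95% level and cover counting error only, since tags amplified by PCR are not independent molecules. The 5 genes that exceeded 1% of a library took up 0.348% of its clean tags at −35 d, then 4.13% at −7 d and finally 22.6% at +3 d. Trimmed mean of M values (TMM) scaling, which sets aside such extreme genes, moved every log2 ratio up by 0.19 in stage I, 0.31 in stage II and 0.50 from −35 d to +3 d. A gene was called when the Audic-Claverie test, which compares the tags of a pair of libraries and not the conditions, gave a false discovery rate of at most 0.001 with a ratio of at least 2-fold. Of the genes called in stage I and stage II, 71.1% and 77.0% were lower at the later time, but 48.1% and 45.5% with TMM scaling. In a whole tissue, fewer cells of a type and less RNA per cell cannot be told apart. Markers of luminal epithelium, the layer that makes milk, were found for 5 of 7 genes with none at 0, and summed to 1800, 1278 and 1117 TPM at −35 d, −7 d and +3 d. Milk protein genes, 10 of 10 found, summed to 6189, 43308 and 236487 TPM, but not all of them rose. From −35 d to +3 d, 9 were called higher and 1, LTF, lower, beside 2.33% and 16.3% of all genes tested. LTF, lactoferrin, was at 2650, 1666 and 1136 TPM. MUC1 was called lower in stage I and higher in stage II (46.67, 21.99 and 98.36 TPM).

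All 5 genes were lower at each later time point. Together they gave 2094, 856 and 279 tags at −35 d, −7 d and +3 d, or 354, 153 and 47.7 TPM. Each was called lower in stage I, where 6.45% of all genes tested were called lower, in stage II, where 10.4% were, and from −35 d to +3 d, where 16.3% were; the choice of these genes fixed those calls. The median log2 ratio over the 5 genes was −1.26 in stage I, −1.56 in stage II and −2.86 from −35 d to +3 d. The medians of the 7570 genes that averaged 1 TPM or more were −0.19, −0.31 and −0.54.

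**Figure D1:**
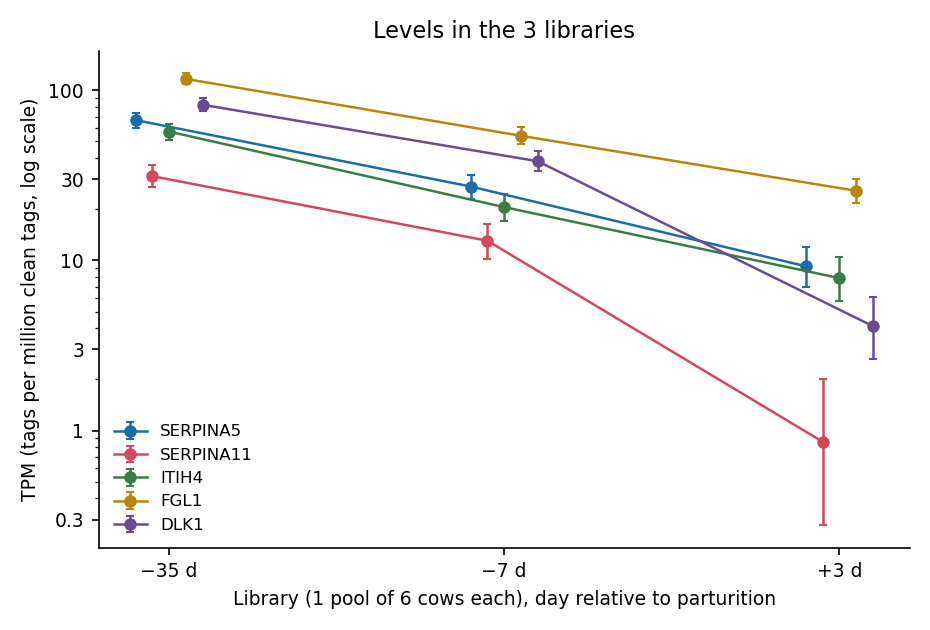
Level of each gene, as TPM on a log axis, in the libraries from −35 d, −7 d and +3 d, each made from 1 pool of 6 cows. Points are the levels and bars the 95% Poisson intervals; SERPINA11 and DLK1 drop most steeply to +3 d, to 0.86 and 4.11 TPM, while FGL1 drops least, to 25.66 TPM.

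SERPINA5 gave 395, 152 and 54 tags in the order of the time points, or 66.79 TPM (interval 60.4 to 73.7), 27.18 TPM (23.0 to 31.9) and 9.24 TPM (6.94 to 12.1). The intervals of these levels did not overlap, but the choice of the gene by these counts favoured that. They do not cover the spread among cows. The level was 2.46-fold lower at −7 d than at −35 d (log2 ratio −1.30, interval −1.58 to −1.02) and 2.94-fold lower at +3 d than at −7 d (−1.56, −2.03 to −1.10). At +3 d, 13.8% of the level at −35 d was left. The accession behind this row, NM_176646, is annotated in RefSeq for the assembly ARS-UCD2.0 as LOC338050, with PCI among its other names, and that annotation gives the symbol SERPINA5 to another gene of the same serpin cluster. Tags that fit several genes of the older reference had been left out of the counts. Whether that reference held both of these near copies was not checked, so which one the tags came from is uncertain.

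SERPINA11 had the fewest tags of the 5 genes, with 185, 73 and 5. Its levels were 31.28 TPM (26.9 to 36.1), 13.05 TPM (10.2 to 16.4) and 0.86 TPM (0.278 to 1.996). In stage I it was 2.40-fold lower (log2 ratio −1.26, −1.67 to −0.86), close to SERPINA5. The ratio of stage II was larger, 15.3-fold lower (log2 ratio −3.93, −5.60 to −2.64), but rests on 5 tags at +3 d, and the interval of the fold ran from 6.25 to 48.4. Of the level at −35 d, 2.73% was left at +3 d.

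Of 42 symbols of other serpins searched, 16 genes were in the libraries and 10 had a mean of at least 1 TPM, with a median log2 ratio of −0.49 in stage I and 0.07 in stage II. In each stage 1 of the 16 was called lower, beside 6.45% and 10.4% of all genes tested. SERPINA3-3, a bovine copy of antichymotrypsin, was the one in stage I, from 93.84 to 2.15 TPM, and it was at 3.42 TPM at +3 d. SERPINA1, alpha-1-antitrypsin, was the one in stage II, and its levels were 98.23, 49.88 and 6.16 TPM. From −35 d to +3 d, 3 serpins were called lower, namely these and SERPINE2, an inhibitor of thrombin and plasminogen activators (93.16, 65.26 and 45.5 TPM), and SERPINB8 was called higher (4.57, 5.18 and 10.61 TPM). Over that span, 16.3% of all genes tested were called lower and 2.33% higher. SERPING1, the inhibitor of complement C1, was listed at 576.89, 418.18 and 583.84 TPM and was not called in either stage. With TMM scaling, 2 other serpins were called higher in stage II, and none without it. Among all genes, 516 of the 8784 tested were called higher in stage II with TMM scaling.

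Among 14 proteases, receptors and cofactors that SERPINA5 is known to meet, 3 were called lower in stage I and 0 higher. The shares of all genes tested were 6.45% and 2.62%. The 3 genes were PLAT, tissue plasminogen activator (73.21, 30.39 and 44.31 TPM), PROS1, the cofactor protein S (35.68, 10.73 and 46.02 TPM), and HPN, the membrane protease hepsin. In stage II none of the 14 was called lower, where 10.4% of all genes tested were. PROS1 was called higher, where 3.12% of all genes tested were. With TMM scaling 4 were called higher in stage II, beside 516 of the 8784 genes tested. PLAU, urokinase, was at 20.12, 18.77 and 33.19 TPM without a call in either stage. From −35 d to +3 d, 2 of the 14 were called lower and 1 higher, beside 16.3% and 2.33% of all genes tested. The higher one was PROCR, the protein C receptor, at 0.85, 2.86 and 6.67 TPM. The lower ones were PLAUR, the urokinase receptor (25.36, 18.42 and 10.78 TPM), and TMPRSS2, a membrane serine protease (11.33, 6.62 and 3.08 TPM), each with a smaller value at each later time point. TMPRSS2 had a log2 ratio of −1.10 in stage II without a call, on 37 and 18 tags.

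ITIH4 gave 338, 115 and 46 tags at −35 d, −7 d and +3 d. Its levels were 57.15 TPM (51.2 to 63.6), 20.56 TPM (17.0 to 24.7) and 7.87 TPM (5.76 to 10.5). These intervals did not overlap either, but the choice of the gene by these counts favoured that. It was 2.78-fold lower in stage I (log2 ratio −1.47, −1.79 to −1.17), the largest stage I ratio of the 5 genes, though the intervals of all 5 overlapped there. In stage II it was 2.61-fold lower (−1.39, −1.91 to −0.88). The level left at +3 d was 13.8% of that at −35 d, as for SERPINA5.

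Of the other genes of the inter-alpha-trypsin inhibitor and hyaluronan system, 11 of 19 symbols were found. In stage I, HYAL2, a hyaluronidase, and VCAN, the hyaluronan-binding proteoglycan versican, were called lower. With TMM scaling neither was called lower, and 350 of the 8967 genes tested were. Without TMM scaling, 6.45% of all genes tested were called lower in stage I and 10.4% in stage II, and 2.62% and 3.12% higher. In stage II none was called lower, and TNFAIP6, which moves heavy chains onto hyaluronan, was called higher (5.07, 2.5 and 8.72 TPM). SPINT2, a Kunitz inhibitor of membrane proteases, was at 351.85, 263.17 and 152.25 TPM and was called lower only from −35 d to +3 d. The other heavy chains found had few tags: ITIH2 was at 2.71, 4.65 and 2.39 TPM and ITIH5 at 3.55, 1.79 and 4.28 TPM, neither called.

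FGL1 had the most tags of the 5 genes in every library, with 690, 302 and 150. Its levels were 116.66 TPM (108 to 126), 53.99 TPM (48.1 to 60.4) and 25.66 TPM (21.7 to 30.1). The folds were the most even of the 5, 2.16-fold lower in stage I (log2 ratio −1.11, −1.31 to −0.91) and 2.10-fold lower in stage II (−1.07, −1.37 to −0.79). Both intervals extend to falls of less than 2-fold, as does that of ITIH4 in stage II and those of SERPINA11 and DLK1 in stage I. At +3 d FGL1 kept 22.0% of its level at −35 d. LAG3, its receptor on T cells, was not listed in any library.

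Of 13 other genes found with a fibrinogen domain, 6 were called lower in stage I and 0 higher, beside 6.45% and 2.62% of all genes tested. In stage II, 8 were called higher and 0 lower, beside 3.12% and 10.4% of all genes tested. From −35 d to +3 d none of them was called, where 16.3% of all genes tested were called lower and 2.33% higher. With TMM scaling 3 were called higher over that span, beside 560 of the 8988 genes tested. Their median log2 ratio over the 12 with at least 1 TPM was −1.54 in stage I, with 10 of 12 below 0, and 1.36 in stage II, with 11 of 12 above 0. MFAP4, an elastic fibre protein, was at 35.0, 4.47 and 40.54 TPM, and TNXB, the matrix protein tenascin X, at 18.43, 3.04 and 19.16 TPM. FGL2, the closest relative of FGL1 by name, was at 26.38, 14.3 and 30.79 TPM and was called higher in stage II. The same −7 d library enters both stages, so a low value there lowers the first ratio and raises the second.

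**Figure D2:**
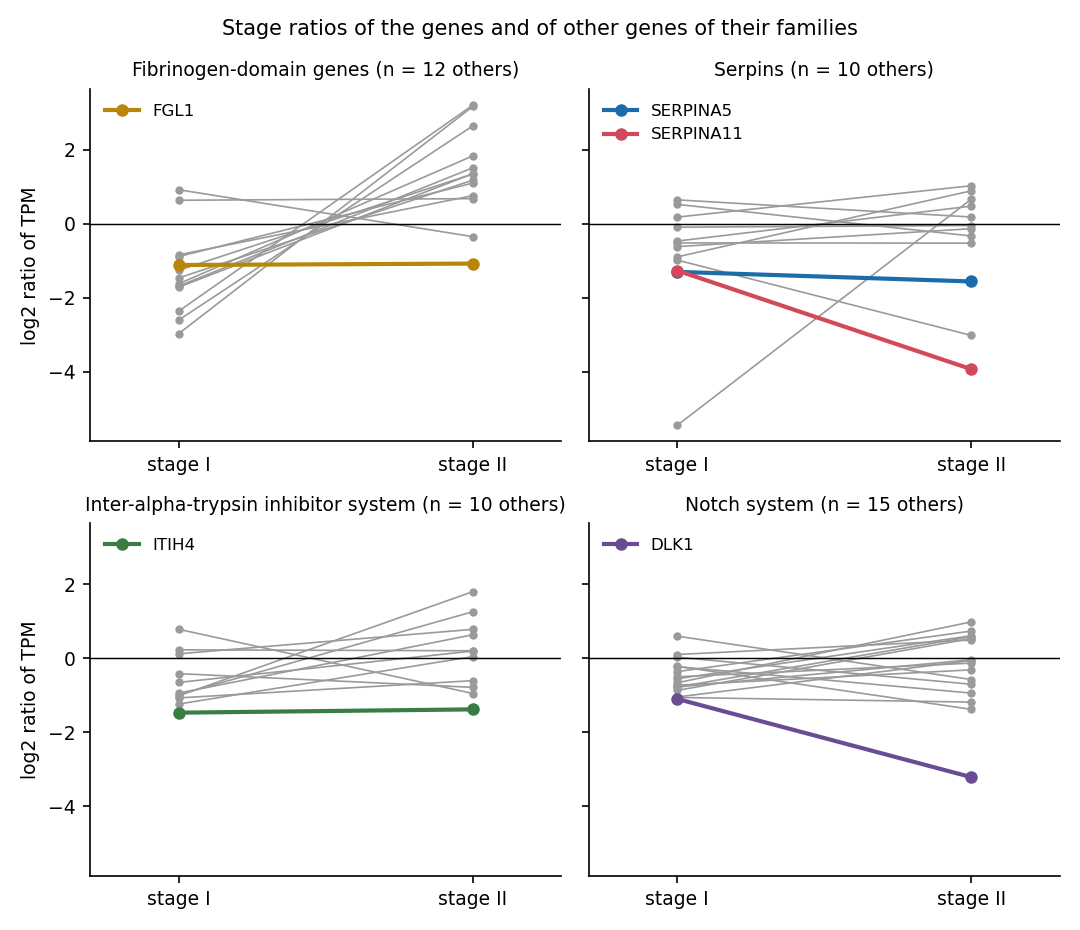
Log2 ratio of TPM (y axis) in stage I and stage II (x axis), joined by a line for each gene, in 4 panels: 12 other fibrinogen-domain genes, 10 other serpins, 10 other genes of the inter-alpha-trypsin inhibitor system and 15 of the Notch system in grey, with the chosen genes in colour. A gene with 3 or fewer tags in any of the libraries is not drawn; FGL1 is level at −1.11 and −1.07, while 10 of the 12 grey lines of its panel start below 0 and 11 of 12 end above it.

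DLK1 gave 486, 214 and 24 tags. Its levels were 82.17 TPM (75.0 to 89.8), 38.26 TPM (33.3 to 43.7) and 4.11 TPM (2.63 to 6.11). It was 2.15-fold lower in stage I (log2 ratio −1.10, −1.34 to −0.87) and 9.32-fold lower in stage II (−3.22, −3.89 to −2.61), where the interval of the fold ran from 6.10 to 14.9. Of the level at −35 d, 4.996% was left at +3 d.

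DLK1 is a noncanonical ligand of Notch receptors, and 20 of 38 symbols of Notch ligands, receptors, modifiers and targets were found. In stage I, MAML2, a coactivator, was called lower and HES6, a relative of the Notch targets with 3, 24 and 5 tags, higher; in stage II, HES6 and NUMB, an inhibitor of Notch, were called lower. With TMM scaling these counts were 0 lower and 1 higher in stage I, beside 350 and 378 of the 8967 genes tested. In stage II they were 1 lower and 2 higher with that scaling, beside 430 and 516 of the 8784 genes tested. Without TMM scaling, 6.45% of all genes tested were called lower in stage I and 10.4% in stage II, and 2.62% and 3.12% higher. From −35 d to +3 d, 6 were called lower and 0 higher, beside 16.3% and 2.33% of all genes tested. With TMM scaling 3 were called lower and 1 higher over that span, beside 444 and 560 of the 8988 genes tested. DLK2, the paralog of DLK1, was at 36.69, 31.29 and 16.25 TPM with no call in either stage, and HES1, a main Notch target, at 46.33, 27.89 and 22.41 TPM. NOTCH1 itself gave 2, 4 and 0 tags.

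The imprinted genes and the adipogenesis genes known to act with DLK1 gave 1 of 19 lower and 0 higher in stage I, and 1 lower and 2 higher in stage II. Among all genes tested, 6.45% were called lower and 2.62% higher in stage I, and 10.4% and 3.12% in stage II. IGFBP4, which binds insulin-like growth factors, was called lower in stage I (364.87, 122.29 and 114.95 TPM). H19, an imprinted long RNA, was called lower in stage II (169.25, 244.58 and 93.57 TPM), and IGFBP5 and IGFBP1 were called higher. From −35 d to +3 d, 3 of the 19 were called lower and 1 higher, beside 16.3% and 2.33% of all genes tested. The lower ones were IGFBP4, IGF2R and PLAGL1, and the higher one was PPARG (2.87, 4.29 and 9.75 TPM). IGF2, the imprinted growth factor that is H19's neighbour, was at 297.24, 245.3 and 292 TPM. Markers of preadipocytes and fibroblasts, 6 of 8 found with none at 0, summed to 7858, 5939 and 9096 TPM, and those of adipocytes, 6 of 7 found, to 208, 137 and 281 TPM with 0, 1 and 1 of them at 0. The adipocyte sum was mostly FABP4, a fatty acid binding protein (152.85, 91.36 and 244.28 TPM), while ADIPOQ, adiponectin, was at 5.07, 4.83 and 2.74 TPM, and the median log2 ratio of the 5 adipocyte markers with at least 1 TPM was −0.57 from −35 d to +3 d. The part of these cell types in the level of DLK1 was not tested.

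The split of the fall between the stages set SERPINA11 and DLK1 apart from the other 3. Stage I held 45.5% of the whole log2 fall for SERPINA5, 51.6% for ITIH4 and 50.9% for FGL1, but 24.3% for SERPINA11 and 25.5% for DLK1. The counting intervals of the stage I and stage II ratios overlapped for SERPINA5, ITIH4 and FGL1 and did not overlap for SERPINA11 and DLK1. The stages share a library, so the ratios of a gene are not independent. The intervals cover counting error only, not the spread among cows, and the genes were chosen by these same counts. Whether the intervals overlapped is therefore a description and no test. On the TPM scale the order differs, since each gene lost more TPM in stage I than in stage II: FGL1 lost 62.67 and then 28.33 TPM, and DLK1 43.91 and then 34.15 TPM.

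**Figure D3:**
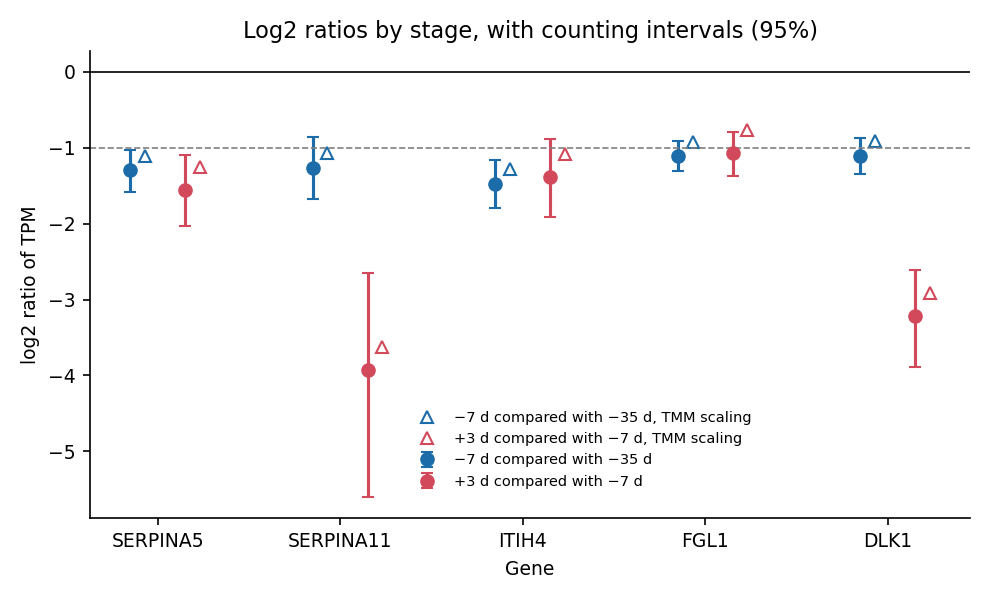
Log2 ratio of TPM for each gene in stage I (blue) and stage II (red), with 95% counting intervals as bars; open triangles show the same ratios with TMM scaling, and the dashed line marks a 2-fold fall. The stage I ratios lie between −1.47 and −1.10, while the stage II ratios spread from −1.07 for FGL1 to −3.93 for SERPINA11.

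Ratios between genes of 1 library need no scaling between libraries, and 10 pairs were computed; since the counts are not per length, only their change is read. SERPINA5 gave 2.14 tags per tag of SERPINA11 at −35 d (1.79 to 2.56), 2.08 at −7 d (1.57 to 2.79) and 10.8 at +3 d (4.35 to 34.6). The pair thus held its ratio over stage I and parted in stage II. SERPINA5 per ITIH4 had overlapping intervals, at 1.17 (1.01 to 1.36), 1.32 (1.03 to 1.70) and 1.17 (0.777 to 1.78). Both became fewer per tag of FGL1. SERPINA5 per FGL1 was 0.572 (0.505 to 0.649), 0.503 (0.411 to 0.614) and 0.36 (0.259 to 0.494), without overlap between −35 d and +3 d. ITIH4 per FGL1 was 0.490 (0.429 to 0.559), 0.381 (0.304 to 0.474) and 0.307 (0.215 to 0.429). The pairs not given here set SERPINA11 or DLK1 against SERPINA5, ITIH4 or FGL1. FGL1 per DLK1 was 1.42 (1.26 to 1.60), 1.41 (1.18 to 1.69) and 6.25 (4.04 to 10.1). SERPINA11 per DLK1 was 0.381 (0.320 to 0.452), 0.341 (0.258 to 0.447) and 0.208 (0.0621 to 0.557), with intervals that overlapped.

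The size of the fall depended on the scale. With TMM scaling, SERPINA5, SERPINA11 and ITIH4 were still at least 2-fold lower in stage I (log2 ratios −1.11, −1.07 and −1.28), while FGL1 and DLK1 were not (−0.92 and −0.91). In stage II, FGL1 was the only one of the 5 short of 2-fold on that scale (−0.77). From −35 d to +3 d the TMM ratios of all 5 lay between −1.69 for FGL1 and −4.69 for SERPINA11.

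The sum of the luminal markers was also lower at −7 d and at +3 d than at −35 d, but its members differed. ELF5, a transcription factor of the secretory lineage, was at 271.2, 352.93 and 155.15 TPM, and KRT8, a keratin, at 296.56, 156.98 and 163.71 TPM. In stage II the lower sum came from ELF5 and EPCAM, while 3 of the 5 markers had ratios above 0, and the median log2 ratio was 0.06. Per 1000 tags of the 5 listed luminal markers, a scale chosen after the data were seen, SERPINA5 gave 37.1, 21.3 and 8.27 tags. FGL1 gave 64.8, 42.3 and 23.0, and DLK1 45.6, 29.9 and 3.68. On this scale none of the 5 genes was 2-fold lower in stage I, where the folds ran from 1.52 for DLK1 to 1.97 for ITIH4. In stage II they were 1.84 for FGL1, 2.28 for ITIH4, 2.57 for SERPINA5, 8.14 for DLK1 and 13.3 for SERPINA11. Which cells held these transcripts, and the part of the change in cell types in these falls, was not tested.

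A set of 11 genes, 0.128% of the 8597 tested in both stages, were called lower in stage I and in stage II. The opposite pattern, higher in both, was called for 19 genes, while 92 were lower and then higher and 112 higher and then lower. Beside the 5 genes, the 11 held CCL21, a chemokine that guides lymphocytes and dendritic cells (217, 84 and 27 tags), RAB15, a GTPase of endosomes (288, 124 and 54), and TYMS, thymidylate synthase of DNA replication (81, 34 and 7). DEFB103B, a beta-defensin (73, 22 and 2 tags), PNMT, which makes adrenaline from noradrenaline (100, 46 and 0), and LOC100335170 (187, 84 and 19) complete them. CCL21 and DEFB103B, like SERPINA5, SERPINA11, ITIH4 and FGL1, encode secreted proteins. With TMM scaling 5 of the 11 were left, namely SERPINA5, SERPINA11, ITIH4, CCL21 and DEFB103B. An exact test in edgeR that assumed a variation of 0.2 (coefficient) between replicates, in place of counting error alone, called 0 genes lower in both stages, against 11 by Fisher's exact test.

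Just inside the 2-fold threshold lay FGL1, at −1.07 in stage II, and DLK1, at −1.10 in stage I. Just outside it, with at least 100 tags at −35 d, a call in 1 stage and a log2 ratio from −1 to −0.9 in the other, lay 9 genes. SERPINA1 was among them, with 581, 279 and 36 tags and log2 ratios of −0.98 and −3.02. SAA3, the serum amyloid A of mammary tissue, was another, with 2011, 1005 and 263 tags and ratios of −0.92 and −1.998. The others were BRD7, COX8A, NFE2L3, PLLP, RCN2, SRSF3 and TOB1.

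**Figure D4:**
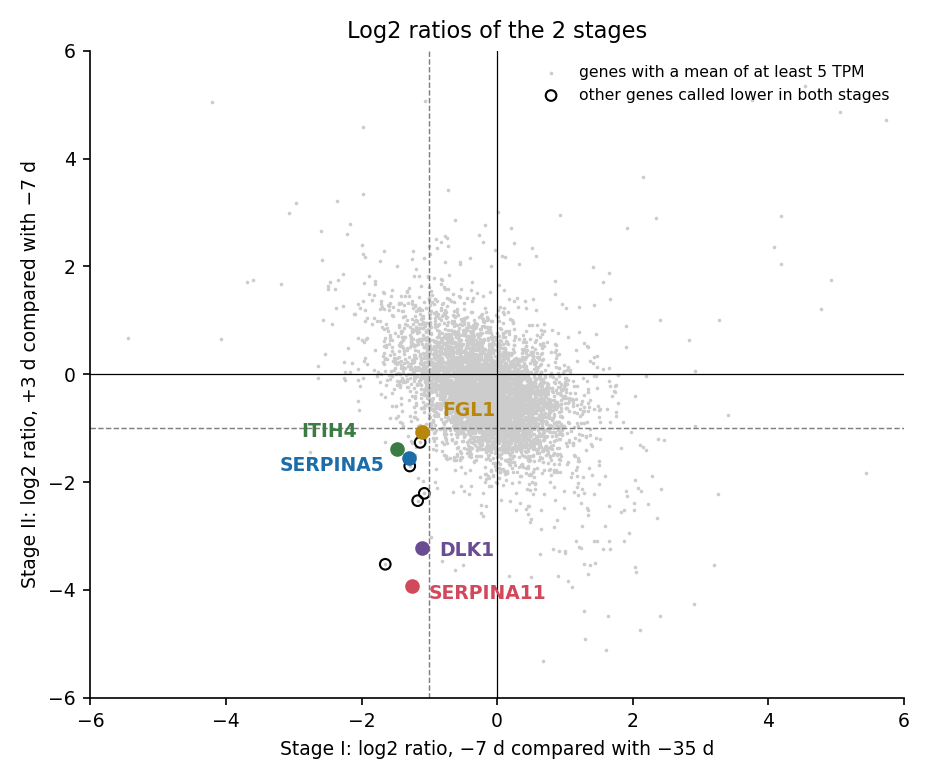
Stage I log2 ratio (x axis) against stage II log2 ratio (y axis) of 5896 genes that averaged 5 TPM or more (grey), with the chosen genes as coloured, named points and the other genes called lower in both stages as open circles; dashed lines mark a 2-fold fall, and 6 genes beyond the axes, PNMT among them, are not drawn. SERPINA11 and DLK1 lie far below the other 3, at −3.93 and −3.22 in stage II.

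The genes with the most similar course were found by the straight-line distance in the plane of the stage I and stage II log2 ratios, over 5902 genes and 3 libraries. DLK1 lay nearest to SERPINA1, at a distance of 0.238. SERPINA5 lay near MGC157332 (0.101), CCL21 (0.145) and GLRX2 (0.239), and ITIH4 near MGC151592 (0.223), SERPINA5 itself (0.247) and MTPN (0.252). FGL1 lay among many genes, the nearest being PTP4A3 (0.0249), RTKN (0.0788) and CA8 (0.103). The genes nearest to SERPINA11 were farther off, namely DEFB103B (0.564), LOC100125916 (0.647) and MYB (0.712). The stage II ratio of SERPINA11 rests on 5 tags at +3 d. Its interval, −5.60 to −2.64, is wider than these distances, and DEFB103B had 2 tags at +3 d. LOC100125916 (0.375) and DEFB103B (0.625) also followed SERPINA1 in the order for DLK1.

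In the RefSeq annotation of ARS-UCD2.0, used for gene order only, SERPINA11 lies next to SERPINA1 in the serpin cluster, and these genes had log2 ratios of −3.93 and −3.02 in stage II. Of the 10 genes nearest to SERPINA11, 5 on each side, SERPINA1 was the only one listed in these libraries. Around the SERPINA5 accession, 2 of 10 neighbours were listed: SERPINA3-3, and GLRX5, which was called higher in stage I and lower in stage II (166, 359 and 80 tags). Of the 10 neighbours of ITIH4, 6 were listed and 0 called lower in either stage, and its paralogs ITIH1 and ITIH3 were not listed. FGL1 also had 6 of 10 listed and 0 called lower. For DLK1, 2 of 10 were listed, of which SLC25A29 was called lower in stage II, and RTL1 and DIO3, the imprinted genes beside DLK1, were not listed. Among all genes tested, 6.45% were called lower and 2.62% higher in stage I, and 10.4% were called lower in stage II. With so few neighbours listed, their counts of calls say nothing about these loci. A gene that was not listed may still have had tags, since ambiguous tags and tags seen 1 time had been removed.

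Since SERPINA5, ITIH4 and FGL1 are best known from liver, other plasma proteins of liver type were counted. Of 29 found, 9 were called lower in stage I and 0 higher, beside 6.45% and 2.62% of all genes tested. The median log2 ratio was −0.93 over 24 genes. In stage II, 7 were called higher and 1, SERPINA1, lower, beside 3.12% and 10.4% of all genes tested. The median there was 0.71. C3, the central complement protein, was at 240.6, 64.9 and 230.25 TPM, and LBP, which binds lipopolysaccharide, at 29.08, 7.33 and 38.49 TPM. CFI, the complement factor I protease, was at 152.17, 24.49 and 23.26 TPM. From −35 d to +3 d, 5 of the 29 were called lower and 0 higher, beside 16.3% and 2.33% of all genes tested. They were SERPINA1, CFI, APOE (430.3, 233.85 and 162 TPM), MASP1 (68.65, 28.07 and 22.58 TPM) and AZGP1 (143.72, 124.97 and 70.31 TPM). Each had a smaller value at each later time point. Among 20 acute phase genes, which overlap this list, 6 were called lower in stage I, beside 6.45% of all genes tested. In stage II 2 were called lower (SERPINA1 and SAA3) and 5 higher, beside 10.4% and 3.12% of all genes tested. Over the span from −35 d to +3 d, 3 were called lower and 1 higher, beside 16.3% and 2.33%. ITIH4, an acute phase protein, was lower in stage II, as were SERPINA1 and SAA3, while HP, haptoglobin, was at 44.97, 10.37 and 22.58 TPM.

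Of 11 hepatocyte markers, 6 were found, and they summed to 14.5, 10.4 and 17.1 TPM with 0, 2 and 3 of them at 0. ALB and APOA1 were not listed, and AHSG gave 2, 5 and 0 tags. Most of the sum came from TTR, transthyretin (41, 14 and 59 tags), which was called higher in stage II, and SERPINC1, antithrombin (22, 30 and 25 tags), which was not called. FOXA3, a transcription factor of liver and gut, gave 16, 5 and 0 tags, and 3 of 14 such factors were found. Macrophage markers, 5 of 5 found with none at 0, summed to 120, 58.5 and 134 TPM, and endothelial markers, 4 of 5 found, to 51.6, 33.8 and 42.6 TPM. Within the endothelial list KDR, a receptor of vascular endothelial growth factor, was at 16.23, 11.44 and 7.36 TPM. The other markers found were higher at +3 d than at −7 d. They were TEK (26.04, 16.98 and 25.83 TPM), PECAM1 (8.12, 5.01 and 8.38 TPM) and CDH5 (1.18, 0.36 and 1.03 TPM). The part of these cell types in the falls of the 5 genes was not tested. Myoepithelial markers, 5 of 6 found, summed to 586, 329 and 553 TPM, and erythrocyte markers, 2 of 3 found, to 0.338, 0 and 0.513 TPM.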

How the data were processed

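The 3 DGE libraries each came from 1 pool of biopsies of 6 cows. The authors cut transcripts at CATG, sequenced tags of 21 bases, removed low quality tags and tags of 1 copy, and matched the rest, allowing 1 mismatch, to transcripts of UMD 3.1. The matching tool is not given in the sources used here. The deposited counts are unambiguous tags summed per gene. The deposited TPM values were made by the authors per 1000000 clean tags. A summary table of mapping classes was not used.

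Tables were joined by accession, and a gene not listed was given 0 tags. RefSeq names matched 7905 accessions. For the Audic-Claverie test the smaller tail was taken 2 times and adjusted by Benjamini-Hochberg over all genes with a tag in either library; 0 TPM was set to 0.01 TPM for ratios. Intervals of levels are exact Poisson and those of ratios exact binomial. The tools were Python 3.11.15, scipy 1.17.1, R 4.3.3, edgeR 4.0.16 (TMM, exact test) and, for size factors, DESeq2 1.42.0, and the count test was tested on simulated data. Folds with at most 3 tags in a library are not given.

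The 5 genes and all lists were chosen with earlier results of these data known. Named genes are the 5, every gene called lower in both stages, the 3 nearest in pattern to each, and genes of the lists; neighbouring genes and those just outside the threshold were added after the data were seen. Alternatives were other scalings, tests, thresholds, a minimum of 5 TPM and 0.5 added tags.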

Additional observations from a re-analysis of the deposited data

How the results depend on the processing

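The 15 log2 ratios of the 5 genes were computed under 6 other scalings or settings. Of these 90 values, 69 stayed within the counting interval, 21 left it and 0 changed sign. The count of 0 carries no weight, since every chosen fall was larger than any shift between these scales. At least 2-fold lower in stage I were 3 genes with TMM scaling, 3 with DESeq2 size factors and 0 per luminal marker tag, a scale added after the data were seen. The median log2 ratio of stage I was −0.77 per luminal tag, and that from −35 d to +3 d was −2.17 per luminal tag, −2.36 with TMM scaling and −2.34 with DESeq2 size factors.

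Genes called lower in both stages numbered 5 with TMM scaling, 5 with DESeq2 size factors, 34 with the tags on listed genes as the total, 1 at a 3-fold threshold and 0 with edgeR's exact test at an assumed variation of 0.2. Of the 170 genes of the lists, the 5 left out, edgeR's exact test called 10 in stage I, 18 in stage II and 13 from −35 d to +3 d. Of the 8967, 8784 and 8988 genes tested, it called 27 lower and 27 higher, 95 and 65, and 102 and 54. The 3-fold threshold called 25, 25 and 25 of the 170. Among all genes tested it called 220 lower and 97 higher, 312 and 128, and 534 and 125.

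Over all genes, the numbers lower and higher in stage I, stage II and from −35 d to +3 d were 350 and 378, 430 and 516, and 444 and 560 with TMM scaling. With DESeq2 size factors they were 348 and 378, 413 and 524, and 420 and 572. Without the genes over 1% they were 430 and 517 in stage II and 627 and 412 from −35 d to +3 d. With the tags on listed genes as the total they were 1906 and 147, and 2898 and 121. With edgeR's exact test they were 27 and 27, 95 and 65, and 102 and 54, and at 3-fold they were 220 and 97, 312 and 128, and 534 and 125.

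No paired analysis was possible because each time point has its own cows and 1 pooled library, and leaving out a library was not run. Summing the distinct tags matched to each gene was not run. Counting error limits SERPINA11 most, with 5 tags at +3 d.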
